A study of Mus musculus with 18 samples.

Results

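Glycolysis and lactate transport genes were examined as a group of 32 genes, chosen by symbol from GENCODE M21 out of 21938 protein-coding genes on GRCm38. They span the route from glucose uptake to lactate export. There were 2 glucose transporters (Slc2a1 and Slc2a3), 3 hexokinases (Hk1, Hk2, Hk3) and 7 further enzymes of the upper pathway (Gpi1, Pfkl, Pfkm, Pfkp, Aldoa, Aldoc, Tpi1). The 4 bifunctional regulators Pfkfb1, Pfkfb2, Pfkfb3 and Pfkfb4 followed, with 8 enzymes of the lower pathway (Gapdh, Pgk1, Pgam1, Pgam2, Eno1, Eno2, Eno3, Pkm). The last were 2 lactate dehydrogenase subunits (Ldha and Ldhb), 2 lactate transporters (Slc16a1 and Slc16a3) and 4 pyruvate dehydrogenase kinases (Pdk1, Pdk2, Pdk3, Pdk4). The symbol Aldoa is carried by 2 gene models. The model at chr7:126795234-126800751 was counted, and the neighbouring model at chr7:126800790-126809108 was set aside.

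The cells were primary splenic B cells from Mir155-sufficient (WT) or Mir155-deficient (KO) C57BL/6 mice. They had been enriched by removing CD43, Ter119 and CD4 bearing cells, and were cultured for 2 days at 1% O2 and 5% CO2 with anti-CD40 (1 µg/ml), an anti-IgM fragment (5 µg/ml) and IL-4 (4 ng/ml). All groups received this hypoxic, stimulated culture, so oxygen itself was not compared. Chromatin was immunoprecipitated for the demethylase KDM2A or for H3K36me2, with 3 libraries per genotype and antibody, and 6 input libraries have no list of their own among the files used here. Replicate 1 was male and replicates 2 and 3 were female in every group, so replicate number and sex cannot be told apart within a genotype. Mice were 6 to 25 weeks old across the experiments. The age behind each library, and whether each came from a separate mouse, were not given in the sources used here, so that p-values measure only the spread between these libraries.

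Glycolysis splits glucose into pyruvate and yields ATP without oxygen, and lactate dehydrogenase then turns pyruvate into lactate so that NAD+ is regenerated. Cells at low oxygen rely on this route. Many of its genes are known targets of the hypoxia-inducible factors, and pyruvate dehydrogenase kinases hold pyruvate back from the mitochondria. KDM2A carries a zinc finger of the CXXC type that binds unmethylated CpG dinucleotides, and removes methyl groups from H3K36me2, a mark of chromatin outside active CpG island promoters. MiR-155 is a microRNA whose loss the study examined for its effect on KDM2A and H3K36me2.

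Because KDM2A recognises CpG, the promoter sequences of the members differ in the feature it reads. RefSeq promoters of GRCm38.p6, 250 bases before to 50 after a start, were found for 31 of the 32 genes. Those with the most CpG and with the fewest are printed 5′ to 3′ on the strand of the gene, with every CpG in capitals. Slc2a1 is added, chosen after its values were seen. The sequence of Slc16a1 (chr3:104638414-104638713, plus strand) holds 42 CpG and that of Slc16a3 (chr11:120948817-120949116, plus strand) holds 36, while Eno3 (chr11:70656926-70657225, plus strand) has 3 and Pgam2 (chr11:5803747-5804046, minus strand) has 1. Slc2a1 (chr4:119108495-119108794, plus strand) holds 18.
Slc16a1: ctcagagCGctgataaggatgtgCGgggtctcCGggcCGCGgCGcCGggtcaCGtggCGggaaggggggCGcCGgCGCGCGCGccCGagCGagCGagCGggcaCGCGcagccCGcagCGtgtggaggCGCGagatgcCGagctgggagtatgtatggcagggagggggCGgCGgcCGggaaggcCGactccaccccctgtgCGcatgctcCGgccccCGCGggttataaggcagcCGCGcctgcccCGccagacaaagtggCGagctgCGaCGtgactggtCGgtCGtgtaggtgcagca
Slc16a3: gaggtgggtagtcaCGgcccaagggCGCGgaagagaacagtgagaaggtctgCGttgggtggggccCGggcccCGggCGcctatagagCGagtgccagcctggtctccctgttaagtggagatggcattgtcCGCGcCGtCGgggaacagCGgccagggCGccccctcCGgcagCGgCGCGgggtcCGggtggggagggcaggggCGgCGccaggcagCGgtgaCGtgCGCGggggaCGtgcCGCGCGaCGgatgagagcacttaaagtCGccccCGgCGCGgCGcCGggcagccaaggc
Eno3: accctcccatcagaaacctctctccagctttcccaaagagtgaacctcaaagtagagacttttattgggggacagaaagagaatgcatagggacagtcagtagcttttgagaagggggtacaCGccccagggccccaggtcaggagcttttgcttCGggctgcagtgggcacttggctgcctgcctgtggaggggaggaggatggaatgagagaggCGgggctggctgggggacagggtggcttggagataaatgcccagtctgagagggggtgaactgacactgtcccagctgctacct
Pgam2: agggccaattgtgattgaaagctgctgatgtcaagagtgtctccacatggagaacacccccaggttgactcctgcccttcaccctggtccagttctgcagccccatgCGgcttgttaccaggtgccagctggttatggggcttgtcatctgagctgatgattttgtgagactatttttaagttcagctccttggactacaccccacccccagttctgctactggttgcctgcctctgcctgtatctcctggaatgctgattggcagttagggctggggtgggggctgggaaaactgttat
Slc2a1: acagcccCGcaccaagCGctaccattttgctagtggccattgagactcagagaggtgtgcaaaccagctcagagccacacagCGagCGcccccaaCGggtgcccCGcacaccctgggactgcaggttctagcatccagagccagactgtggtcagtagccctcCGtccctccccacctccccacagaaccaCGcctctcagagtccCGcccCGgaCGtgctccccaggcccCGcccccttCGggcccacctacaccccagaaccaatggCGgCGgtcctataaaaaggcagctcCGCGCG

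The number of CpG in the 300-base stretches did not order the members by KDM2A. Coverage, used throughout, is the percent of a region that lay under the peaks of a library's list, and promoter windows reached 2 kb to each side of every annotated transcription start site (TSS) of the gene, merged where they met. Across the 31 members the CpG count and the mean KDM2A promoter coverage over 6 libraries had a Spearman rho of -0.06, against 0.56 over 16505 protein-coding genes with a promoter sequence. These correlations are descriptions across genes, which share their libraries. The CpG were counted in 300 bases, but the windows of a member spanned 4001 to 34155 bp. The 31 members include the 3 on chromosome X, where peaks were few. In WT, Pgam2 and Eno3, with the fewest CpG in the printed stretch, had 48.3% and 52.0% of their windows under KDM2A peaks on average and Slc16a1, with the most, had 26.1%. In KO the means were 12.3%, 26.2% and 23.3%, so that Pgam2 lay below Slc16a1. The median CpG count was 20 in the members and 15 in all 16522 genes with a promoter. The core of the hypoxia response element, searched as ACGTG or GCGTG on either strand, occurred in 26 of the 31 sequences (83.9%) and in 51.4% of all promoters of this length. Each match contains a CpG, and a palindromic match is read on both strands, so this share moves with the CpG count and is a description only.

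The lists differed in length between genotypes, which bears on every value below. KDM2A lists held 23372 to 29105 peaks in WT and 15387 to 21705 in KO. H3K36me2 lists held 85387 to 94136 peaks in WT, but 37447, 45180 and 106720 in KO, where the male library had the longest list of all. The depth of the libraries is unknown, which leaves values without a counting interval, and a shorter list cannot be told apart from a shallower library or from fewer marked cells in the culture. Of 8 B cell marker genes, 7 or 8 held a KDM2A peak in every library, against 0 or 1 of 4 T cell markers, 0 to 2 of 3 myeloid markers and 1 of 2 erythroid markers. H3K36me2 peaks lay over 6 or 7 of the B cell markers in WT and 6, 1 and 2 in KO, and over 2 or 3 of the myeloid markers in every library. Peaks of these antibodies do not measure expression. KDM2A peaks lay over Mir155hg, the host gene of miR-155, in all 6 libraries, and peak lists cannot show its deletion.

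KDM2A was common at the members. In WT libraries 26 to 29 of the 32 genes had a KDM2A peak at the promoter, and in KO libraries 24 to 28, where 46.8 to 48.3% and 38.6 to 45.2% of all protein-coding genes had one. A promoter peak was present in all 6 libraries for 21 members and for 26.4% of all genes. Only Ldhb and Pdk4 had none in any library. Mean KDM2A promoter coverage of the members was 27.0%, 24.3% and 29.6% in the WT libraries of replicates 1, 2 and 3, and 17.6%, 19.5% and 23.0% in the KO libraries, while that of all genes was 8.35 to 10.4% in WT and 5.31 to 7.97% in KO. KO values of the members were thus below every WT value, as those of all genes were. H3K36me2 was sparser. It touched 18 to 23 member promoters in WT and 19, 7 and 12 in KO, where 39.3 to 41.4% and 38.6%, 16.1% and 17.7% of all genes had a peak. The mean coverage of the members was 12.9 to 13.5% in WT against 7.77%, 1.74% and 2.55% in KO, and that of all genes was 7.63 to 8.72% in WT and 5.90%, 1.93% and 1.81% in KO.

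**Figure D1:**
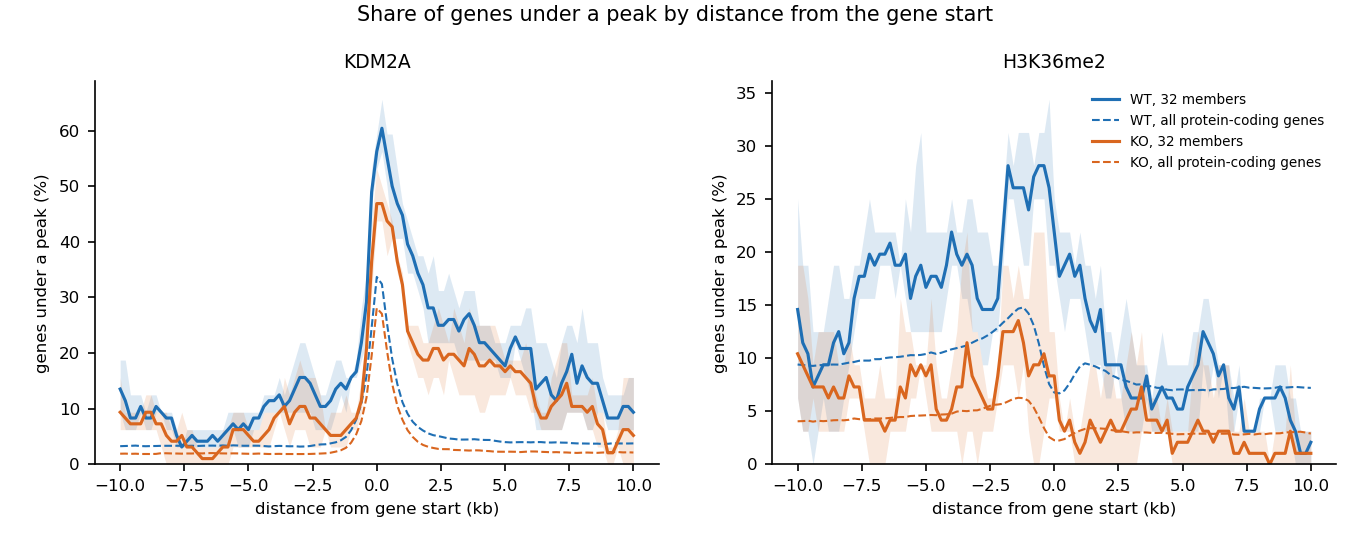
Percent of the 32 members (solid lines) and of all protein-coding genes (dashed lines) under a peak at each distance from the gene start, from 10 kb upstream to 10 kb downstream, as the mean of 3 libraries per genotype (blue WT, orange KO), with shading from the lowest to the highest library for the members. KDM2A peaks at the start, over 56.2% of members in WT and 46.9% in KO. H3K36me2 in WT covers more of the 2 kb upstream of the start than of the first 2 kb of the gene.

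The profile around the gene start showed where the peaks of each antibody lay. At the start itself 56.2% of members were under a KDM2A peak in WT and 46.9% in KO, against 33.7% and 28.1% of all genes. At 4 kb downstream 21.9% of members in WT and 17.7% in KO were still under a peak, against 4.44% and 2.51% of all genes. H3K36me2 in WT covered 24.7%, 26.3% and 28.0% of the 2 kb upstream of the members on average, and 18.9%, 16.8% and 13.6% of the first 2 kb of the gene. In KO the upstream values were 17.7%, 5.53% and 8.81%, and those of the first 2 kb were 6.49%, 1.48% and 1.62%. Of the KDM2A-covered bases in the members' promoter windows, 12.2 to 16.2% were also under H3K36me2 in the WT libraries, and 7.33%, 1.01% and 1.31% in the KO libraries of the same number. H3K36me2 covered 10.2 to 11.5% of the same windows in WT, and 6.70%, 1.35% and 2.07% in KO. The share within KDM2A peaks was thus higher than over the windows in every WT library and KO replicate 1, and lower in KO replicates 2 and 3.

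Wide KDM2A domains lay over several enzymes of the pathway. Gapdh, the glyceraldehyde phosphate dehydrogenase, and Aldoa, the main aldolase outside liver and brain, had their whole gene body under KDM2A peaks in all 6 libraries, as did 42 of the 21938 protein-coding genes (0.191%). Among genes of similar length, from 3 to 6 kb, 14 of 2673 did (0.524%). Tpi1, triose phosphate isomerase, was wholly covered in every library but KO replicate 2, where 66.5% was covered. The peak over the start of Gapdh was 14.6, 9.30 and 15.2 kb wide in the WT libraries and 8.70, 8.15 and 8.05 kb in KO. That over the start of Aldoa spanned 9.40 to 26.5 kb in WT and 9.11 to 24.1 kb in KO. At Eno3, the muscle enolase, KDM2A lay mainly upstream, where it covered 100%, 96.8% and 100% of the 2 kb before the start in WT and 96.6%, 99.3% and 62.5% in KO. By mean promoter coverage in WT, Gapdh ranked 36 and Tpi1 64 among all protein-coding genes.

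**Figure D2:**
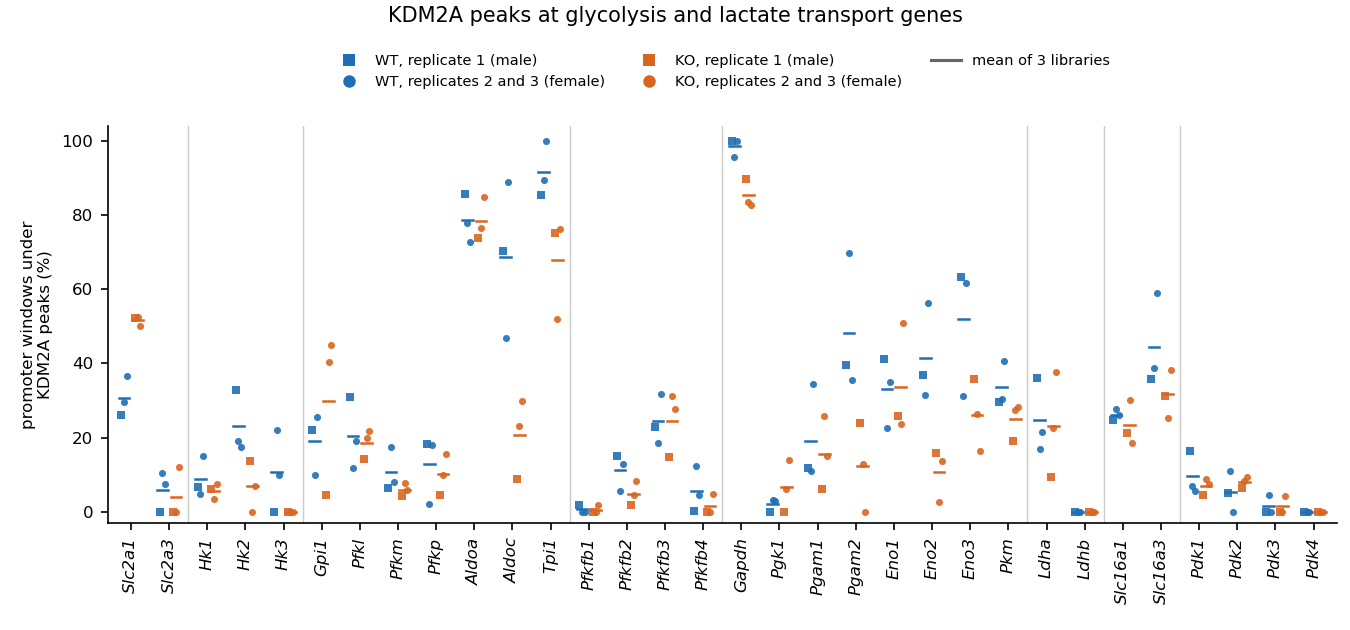
Percent of the promoter windows under KDM2A peaks for each of the 32 genes (columns, in pathway order, with grey lines between roles), with a point per library (squares replicate 1, circles replicates 2 and 3), bars at the mean of 3 libraries, WT in blue and KO in orange. Slc2a1 is the gene whose 3 KO libraries (50.0 to 52.6%) all lie above the 3 WT libraries (26.1 to 36.7%), while Aldoc, Eno2 and Pgam2 show the reverse.

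The first comparison asked whether KDM2A coverage of these promoters differed between KO and WT B cells. No member and none of the 8371 protein-coding genes tested passed limma's test at an adjusted p of 0.05 (0% called), while 846 genes and 7 of the 25 members tested had an unadjusted p under it. The 7 members below the 5% mean coverage needed for testing were Slc2a3, Pfkfb1, Pfkfb4, Pgk1, Ldhb, Pdk3 and Pdk4. In 7 members all KO libraries lay below all WT libraries, a pattern seen in 15.4% of tested genes. In 1 member, Slc2a1, all KO libraries lay above, as in 1.28% of tested genes. The median difference (KO minus WT) of the members was -3.32 percentage points and that of all genes tested was -4.53. The members' median rested on single libraries, at -1.77 without KO replicate 1, -5.86 without KO replicate 2, -8.11 without KO replicate 3 and -6.86 without WT replicate 2. It lay below that of all genes under 8 of 15 alternatives, such as the narrow window (-7.32 against -5.18). When each library was scaled to its mean coverage, the medians were 2.57 and 0.50, so directions below are given with that scaling wherever it turns them.

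Among the glucose transporters, Slc2a1 had more KDM2A in KO, where 20 of the 25 members and 6496 of the 8371 genes tested had less. After scaling 15 of 24 members and 4439 of 8337 genes had more as well. Slc2a1 encodes GLUT1, the basal glucose transporter and a hypoxia target, and lies at chr4:119108711-119137983 on the plus strand, with 5 TSS and no start of another gene in its windows. KDM2A covered 26.1%, 29.5% and 36.7% of its promoter windows in WT and 52.1%, 52.6% and 50.0% in KO. Every KO library was above every WT library, and the KO values were close together. The difference was 20.8 ± 8.66 points (SE, limma adjusted p = 0.49), and it was 37.7 points after scaling to the library mean. With windows from 1 kb upstream to 100 bp downstream the libraries overlapped, since coverage there reached 94.5% in WT replicate 3 and 83.4% to 100% in KO. Slc2a3, which encodes the high-affinity transporter GLUT3, had little KDM2A, with 0%, 10.5% and 7.43% in WT and 0%, 0% and 12.01% in KO.

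The peaks themselves showed how the Slc2a1 values arose. The KDM2A peak over its start spanned 1097, 1239 and 1541 bp in the WT libraries and 2192, 2211 and 2101 bp in KO. In KO it began 783, 1192 and 1280 bp upstream of the start and ended 1408, 1018 and 820 bp inside the gene, while in WT it began 512, 232 and 928 bp upstream and ended 584, 1006 and 612 bp inside. The fold of this peak over the authors' control stood at 3.70, 2.89 and 4.18 in the WT libraries and at 3.34, 3.00 and 3.73 in KO, so the genotypes overlapped in peak strength and separated in width. H3K36me2 lay immediately upstream in WT. Peaks at chr4:119106562-119108513, chr4:119103382-119108362 and chr4:119106638-119108559 in replicates 1, 2 and 3 ended 198, 349 and 152 bp before the start. No KO library had a peak there, although all 3 had one further upstream that ended 2834, 4604 and 4131 bp before the start.

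**Figure D3:**
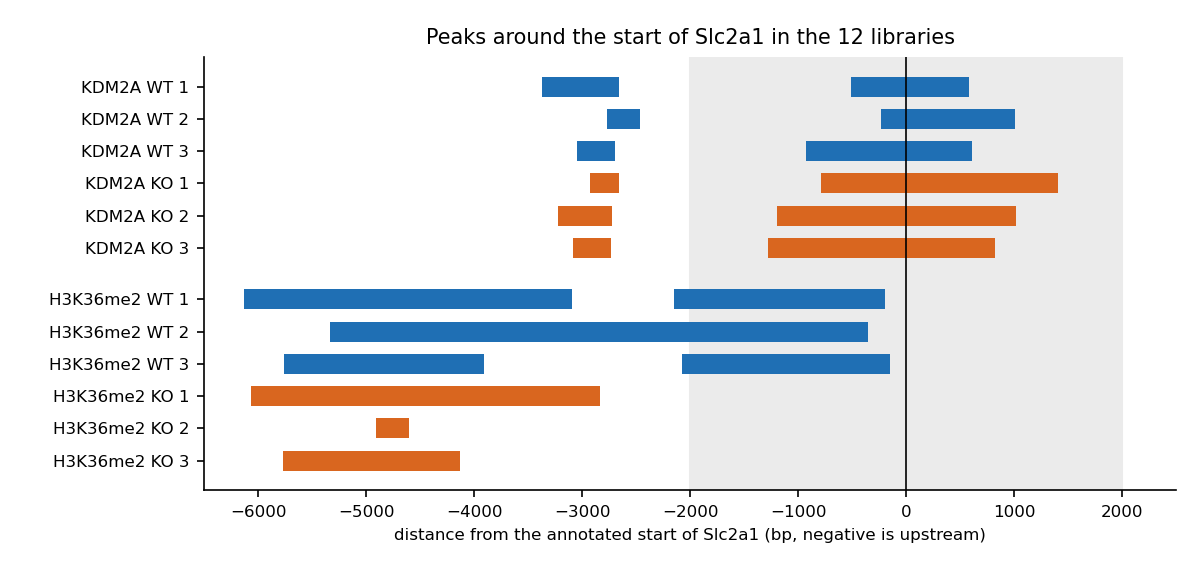
Position of every KDM2A peak (upper 6 rows) and H3K36me2 peak (lower 6 rows) near the start of Slc2a1 in the 12 libraries, as distance from the annotated gene start in bp (negative is upstream), with WT in blue, KO in orange and the 2 kb to each side of the gene start shaded. The KDM2A peak over the start is 2101 to 2211 bp wide in KO and 1097 to 1541 bp in WT, and the H3K36me2 peak that ends 152 to 349 bp before the start is present in the 3 WT libraries and in no KO library.

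Hexokinases trap glucose in the cell by phosphorylation. Hk2, the inducible isoform, had KDM2A over 32.8%, 19.2% and 17.3% of its windows in WT and 13.7%, 0% and 6.90% in KO, so that the genotypes did not overlap, with a difference of -16.2 ± 6.12 points (SE, limma adjusted p = 0.48) that was -11.3 after scaling, with overlap. Hk1, the ubiquitous isoform, had a WT mean of 8.85 ± 5.50% and a KO mean of 5.61 ± 2.05% (SD, n = 3 libraries). Hk3, an isoform of myeloid cells, had no KDM2A peak at the promoter in KO and in WT replicate 1, and 22.1% and 9.84% in the other WT libraries.

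In the upper pathway the aldolases parted. Aldoc, the aldolase known from brain, was covered over 70.3%, 46.7% and 89.0% in WT and 8.96%, 23.2% and 29.8% in KO. Every KO library was far below every WT library. The difference of -48.0 ± 13.0 points (SE, limma adjusted p = 0.40) was the largest of the members in this comparison, and it was -33.8 after scaling and -41.3 with lists of equal length. Aldoa was covered over 85.6%, 77.8% and 72.7% in WT and 73.9%, 76.5% and 84.9% in KO, with full overlap of the genotypes, although scaling to the library mean placed all KO values above (29.3 points). Tpi1 had 85.4%, 89.4% and 100% in WT and 75.3%, 51.8% and 76.2% in KO, a difference of -23.8 points that was 3.27 after scaling and -15.9 without KO replicate 2. Pfkm, the muscle-type phosphofructokinase, had the lowest mean coverage of the upper enzymes, at 6.54%, 17.4% and 8.09% in WT and 4.38%, 7.82% and 5.79% in KO. Gpi1, Pfkl and Pfkp, which encode glucose phosphate isomerase and the liver-type and platelet-type phosphofructokinases, overlapped between genotypes, with differences of 10.8, -1.95 and -2.72 points, the last 2 of which were 5.79 and 1.35 after scaling.

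The bifunctional enzymes set the level of fructose 2,6-bisphosphate, the activator of phosphofructokinase. Pfkfb3, the isoform of proliferating and hypoxic cells, had the most KDM2A of them, with 23.0%, 18.5% and 31.6% in WT and 14.8%, 31.1% and 27.7% in KO. The genotypes overlapped, and the mean difference was 0.14 points. The WT and KO means were 11.2 ± 4.97% and 4.88 ± 3.29% at Pfkfb2, and 5.69 ± 6.12% and 1.57 ± 2.72% at Pfkfb4 (SD, n = 3 libraries). Pfkfb1, on chromosome X, had 1.86%, 0% and 0% in WT and 0%, 0% and 1.82% in KO.

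The lower pathway held 4 of the 8 members whose genotypes did not overlap. Gapdh was covered over 100%, 95.6% and 100% in WT and 89.8%, 83.5% and 82.6% in KO, a difference of -13.2 ± 4.72 points (SE, limma adjusted p = 0.47) that became 21.5 after scaling. Eno2, the neuronal enolase, had 36.9%, 31.4% and 56.4% in WT and 15.8%, 2.63% and 13.6% in KO, a difference of -30.9 ± 8.86 points (limma adjusted p = 0.40) that was -23.4 after scaling. Pgam2, the muscle phosphoglycerate mutase, had 39.5%, 69.8% and 35.6% in WT and 23.9%, 13.0% and 0% in KO. Its difference of -36.0 points was -25.7 after scaling, with overlap, but 0.46 when lists of equal length were compared. Pkm, the pyruvate kinase of proliferating cells and muscle, had 29.6%, 30.5% and 40.7% in WT and 19.2%, 27.6% and 28.4% in KO, a difference of -8.57 points that was 1.88 after scaling, -5.00 without WT replicate 3 and -5.64 without KO replicate 1.

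Paralogs of the same steps, set beside these after their values were seen, did not separate. Eno1, the ubiquitous enolase, had 41.3%, 22.6% and 34.9% in WT and 25.9%, 23.6% and 51.0% in KO, with a difference of 0.55 points that scaling raised to 11.5, with all KO values then above. Pgam1, the ubiquitous mutase, had 11.7%, 10.9% and 34.4% in WT and 6.21%, 25.7% and 15.1% in KO, a difference of -3.32 points that was 3.602 after scaling. Eno3 overlapped narrowly, with 63.2%, 31.2% and 61.8% in WT and 35.8%, 26.2% and 16.5% in KO. The windows of Pfkm, another muscle isoform, also overlapped between genotypes, and those of the broadly expressed Gapdh, Tpi1 and Pkm did not.

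At the lactate end of the pathway KDM2A promoter coverage overlapped between genotypes at every gene. Ldha, the subunit that favours lactate formation, had 36.1%, 16.96% and 21.5% in WT and 9.33%, 22.7% and 37.6% in KO, a difference of -1.63 points that was 6.66 after scaling. Ldhb, the other subunit, had no KDM2A peak in any list. Slc16a1, which encodes the lactate transporter MCT1, had 24.7%, 27.7% and 26.0% in WT and 21.2%, 30.1% and 18.6% in KO, a difference of -2.81 points that was 7.30 after scaling. Slc16a3, which encodes MCT4, the exporter of glycolytic cells, had 35.8%, 38.8% and 59.1% in WT and 31.3%, 25.3% and 38.3% in KO. Pyruvate dehydrogenase kinases had little KDM2A. Pdk1, the hypoxia-induced isoform, had the highest WT mean of them, with 16.3%, 6.98% and 5.53% in WT and 4.58%, 8.88% and 7.40% in KO, a difference of -2.64 points that was 0.81 after scaling. Pdk2 had 5.16%, 10.9% and 0% in WT and 6.51%, 8.35% and 9.48% in KO, Pdk3 was at most 4.58% in any library, and Pdk4 was at 0% in all.

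The strength of the strongest promoter peak, as the fold over control given by the authors, separated fewer members than coverage did. None of the 21 members with a peak in all 6 libraries, and none of 5786 genes (0% called), passed limma's test after each library was centred on its median, and 0 members and 299 genes had an unadjusted p under 0.05. In 2 members the genotypes did not overlap, both lower in KO, where 5.17% of genes were, and no member was higher in all KO libraries, where 5.2% of genes were. The fold at Gapdh was 4.00, 4.08 and 3.97 in the WT libraries and 3.50, 3.18 and 3.75 in KO, a log2 difference of -0.15 ± 0.12 (SE, limma adjusted p = 0.93). That at Slc16a1 was 3.06, 3.44 and 3.57 in the WT libraries and 2.85, 2.80 and 2.96 in KO, a log2 difference of -0.16 ± 0.11 (limma adjusted p = 0.91). The highest WT mean fold of the members was at Tpi1, with 4.37, 4.52 and 4.16 in WT and 3.50, 3.85 and 4.25 in KO. The folds of Aldoc and Eno2 overlapped, with log2 differences of 0.08 and 0.09, opposite in sign to their coverage. The median log2 difference of the members was -0.01, and that of all genes was 0.00, a value that the centring sets. Without centring they were -0.08 and -0.06.

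**Figure D4:**
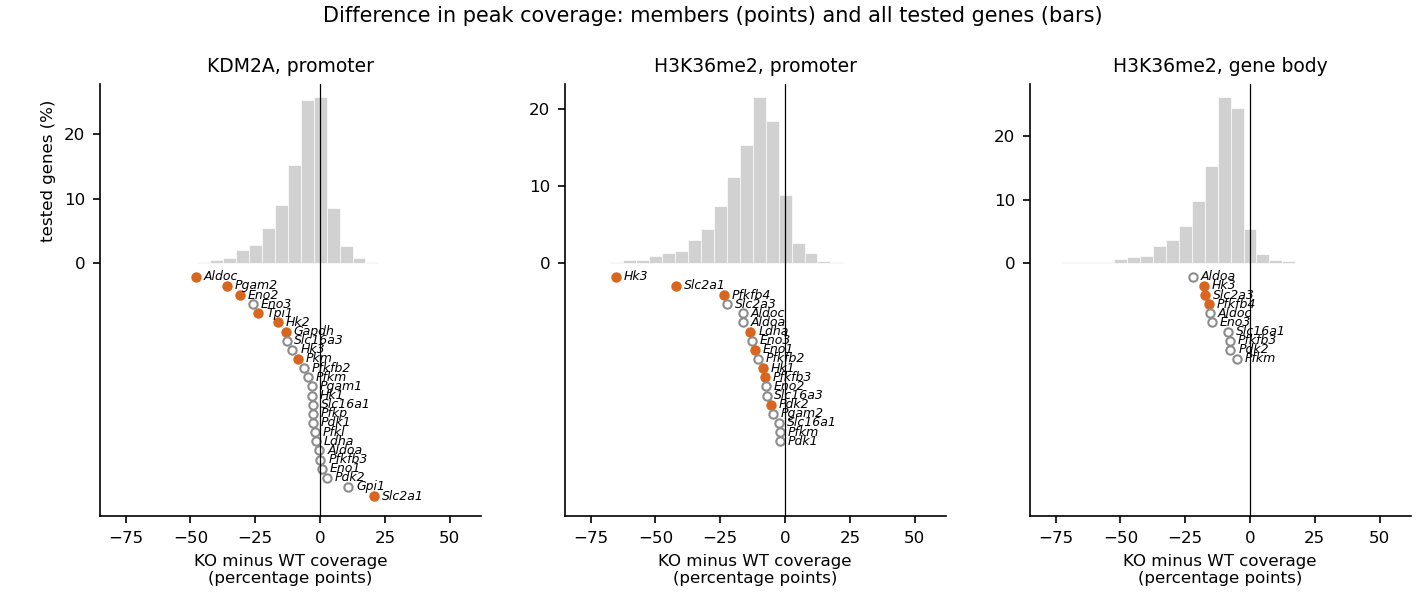
Mean KO minus mean WT coverage in percentage points for KDM2A promoters, H3K36me2 promoters and H3K36me2 gene bodies, with bars above 0 for the percent of all tested genes in steps of 5 points and a point below for each tested member, sorted by value, filled orange where the KO and WT libraries do not overlap. The members at the ends are Aldoc (-48.0) and Slc2a1 (20.8) for KDM2A and Hk3 (-65.4) and Slc2a1 (-42.1), both low, for H3K36me2 promoters.

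The second comparison asked the same of H3K36me2 at the promoters. Of 19 members with a mean coverage of at least 5%, none passed limma's test, as none of 7107 genes did (0% called), while 5 members and 1587 genes had an unadjusted p under 0.05. All 19 had a lower mean in KO, as did 6563 of the 7107 genes, although 6 of the 14 that were also tested after scaling to the library mean then had a higher one. Some, such as Ldha and Pfkfb2, passed the coverage minimum through WT alone. Without that minimum 23 of 26 members and 10672 of 12533 genes had a lower mean in KO. In 8 of the 19 all KO libraries were lower, a pattern seen in 29.6% of tested genes. No member had all KO libraries higher, a pattern seen in 0.253%. The median difference was -10.4 points for the members and -11.7 for all genes tested, and -0.13 and -0.59 after scaling to the library mean.

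Slc2a1 had H3K36me2 over 42.9%, 39.3% and 44.0% of its promoter windows in WT and 0% in each KO library. The genotypes were far apart, with a difference of -42.1 ± 9.52 points (SE, limma adjusted p = 0.19) that was -29.3 after scaling. The WT peaks were weak, however, with folds of 2.66, 2.60 and 2.36 and a −log10 q of 1.64, 1.81 and 1.17, so that none remained at a −log10 q of at least 2 and only that of WT replicate 2 remained in lists of equal length. Slc2a1 and Ldha were the 2 members with a promoter peak in all WT and no KO libraries, as were 2.12% of all genes. Ldha had 2.29%, 13.0% and 24.8% in WT and 0% in each KO library, and fell under the coverage minimum after scaling. Slc2a3 had 44.6%, 30.0% and 10.3% in WT and 13.6%, 2.85% and 1.34% in KO, which overlapped narrowly.

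Hk3 carried the most H3K36me2 of any member promoter. It was covered over 91.0%, 75.4% and 87.7% in WT and 41.2%, 9.21% and 7.50% in KO. The male KO library lay well above the female ones, and all KO libraries lay below all WT libraries. The difference of -65.4 ± 15.9 points (SE, limma adjusted p = 0.19) was the largest of the members, and it was -28.7 after scaling. Hk1 had 7.99%, 14.7% and 8.07% in WT and 4.30%, 1.27% and 0% in KO.

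Among the regulators, Pfkfb4, a hypoxia-induced isoform, had 39.0%, 28.4% and 23.6% in WT and 15.1%, 0% and 5.56% in KO, a difference of -23.4 ± 9.51 points (SE, limma adjusted p = 0.21) that was -10.6 after scaling. Pfkfb3 had 7.29%, 6.96% and 16.4% in WT and 0.76%, 0% and 6.26% in KO, a difference of -7.87 points that was -0.13 after scaling. Eno1 had 6.88%, 21.9% and 9.08% in WT and 0%, 0% and 3.32% in KO, and its difference of -11.5 points was -5.15 after scaling. Pdk2 had 9.64%, 14.7% and 9.10% in WT and 8.44%, 0% and 8.22% in KO, a difference of -5.59 points that was 3.69 after scaling and -2.82 without KO replicate 2. Pfkfb1, Pgk1, Pgam1, Ldhb, Pdk3 and Pdk4 had no H3K36me2 promoter peak in any list, as for 42.9% of all genes.

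The Aldoa locus showed how the choice of gene model matters. The counted model had 49.2%, 38.2% and 4.199% in WT and 32.5%, 0% and 10.2% in KO, with overlap of the genotypes. The model set aside, whose start lies upstream, had 48.1%, 55.2% and 43.5% in WT and 30.0%, 0% and 0% in KO, without overlap. The windows of 8 members held the TSS of another gene, 4 of them of a protein-coding gene (Fam57b at Aldoa, Apex2 at Pfkfb1, Senp1 at Pfkm and Yod1 at Pfkfb2), and peaks there cannot be assigned to either gene.

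**Figure D5:**
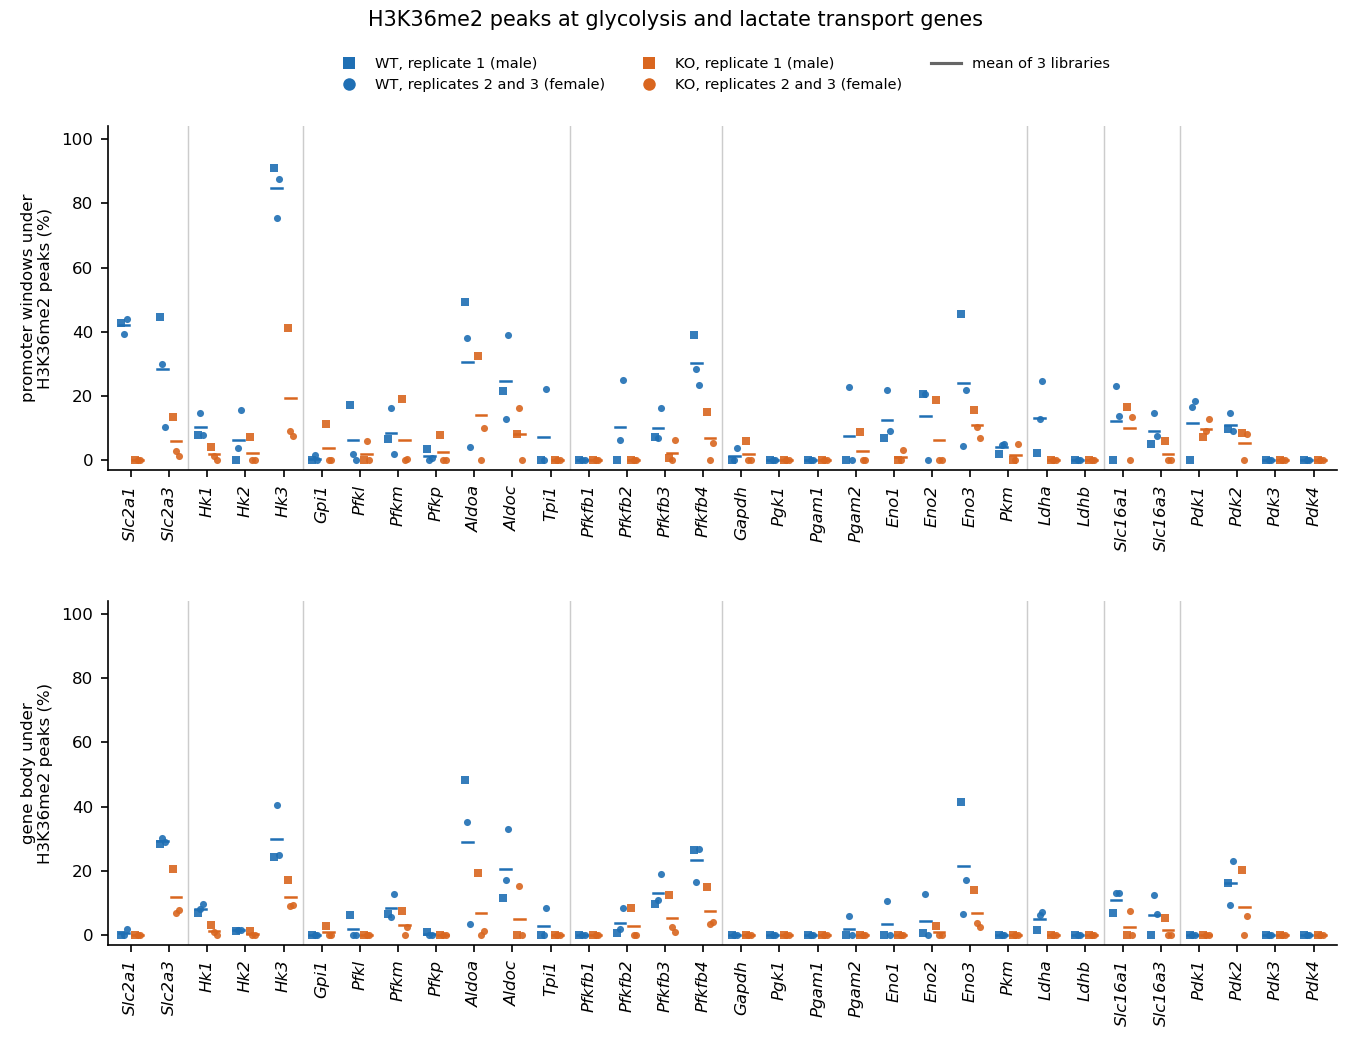
Percent of the promoter windows (upper panel) and of the gene body (lower panel) under H3K36me2 peaks for each of the 32 genes in pathway order, with a point per library (squares replicate 1, circles replicates 2 and 3), bars at the mean of 3 libraries, WT in blue and KO in orange. Hk3 and Slc2a1 show the widest gap at the promoter, and the squares of the male KO library often lie above the circles of the female ones.

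The third comparison was of H3K36me2 over the gene body, where the mark normally spreads. No member among 10 tested and none of 5342 genes passed limma's test (0% called), while 4 members and 1677 genes had an unadjusted p under 0.05. In 3 members all KO libraries were lower, against 39.6% of genes, and in none were all higher, against 0.0936%. The members' median difference was -15.1 points and that of all genes -10.6, and both were near 0 after scaling (-0.13 and -0.12). Slc2a3 had 28.3%, 30.3% and 29.0% in WT and 20.5%, 7.05% and 7.90% in KO. Its difference of -17.4 ± 6.62 points (SE, limma adjusted p = 0.15) was 2.42 after scaling. Hk3 had 24.3%, 40.4% and 25.1% in WT and 17.4%, 9.23% and 9.41% in KO, a difference of -17.9 points that was 5.18 after scaling. Pfkfb4 had 26.7%, 16.6% and 26.9% in WT and 15.2%, 3.58% and 4.10% in KO, a difference of -15.8 points that was -3.37 after scaling.

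The call here depended on KO replicate 1, the male library, which also had the longest H3K36me2 list. Without KO replicate 1, limma called 1455 of 5262 genes (27.7%) and 2 of 11 members, Slc2a3 (-21.7 points, adjusted p = 0.0370) and Pfkfb4 (-19.6 points, adjusted p = 0.0431). With the female libraries only, it called 2357 of 5009 genes (47.1%) and these same 2 members of 10. In both fits the KO lists held 37447 and 45180 peaks, against 85387 to 94136 in WT. These fits were not repeated with scaled coverage or equal lists, so the part of list length in the calls was not tested. With all libraries, the difference after scaling was 2.42 points at Slc2a3 and -3.37 at Pfkfb4. No H3K36me2 peak lay over the body of Gapdh, Pkm, Pdk1, Pgk1, Pgam1, Ldhb, Pfkfb1, Pdk3 or Pdk4 in any library. Gapdh ranked 36 and Pkm 1614 among all genes by mean KDM2A promoter coverage in WT, whereas Ldhb and Pdk4 had neither KDM2A nor H3K36me2 peaks.

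The 3 members on chromosome X were poor in both. Pgk1, phosphoglycerate kinase, had KDM2A promoter coverage of 0%, 3.12% and 2.93% in WT and 0%, 6.16% and 14.1% in KO, and Pdk3 of 0%, 4.58% and 0% in WT and 0%, 0% and 4.37% in KO. None of the 3 had an H3K36me2 peak at the promoter or over the gene. Chromosome X holds 4.32% of protein-coding genes but 0.131 to 0.991% of the peaks of a list, and 3.48 to 14.5% of its genes had a KDM2A promoter peak, so the values of these members cannot be told apart from those of their chromosome.

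Of 33 further genes of the pathway (other glucose and lactate transporters, minor isozymes, the pyruvate carrier and the pyruvate dehydrogenase complex with its phosphatases), none passed limma's test with all 6 libraries. For H3K36me2 gene bodies, 4 of 11 did without KO replicate 1, where 27.7% of all genes did, and 5 of 11 with female libraries only, where 47.1% did. Of those tested, 1 of 7 had all KO libraries higher in KDM2A fold (Bsg, log2 difference 0.23), against 5.2% of all genes, and 1 of 16 had all KO libraries higher in KDM2A promoter coverage (Mpc2, 12.02 points) and 0 lower, against 1.28% and 15.4%. In H3K36me2 promoter coverage 7 of 17 had all KO libraries lower, against 29.6% of all genes, and 1 higher, against 0.253%. In gene body coverage 3 of 11 had all lower, against 39.6%. Their median differences were -4.38, -13.1 and -11.7 points. After scaling 2 of 15 had all KO libraries lower in H3K36me2 promoter coverage and 1 higher, against 9.62% and 3.33% of all genes, and 1 of 12 lower in gene body coverage, against 7.86%. The medians after scaling were -0.74, -4.26 and -0.85 points. The largest differences were -16.9 points at Slc2a6 for KDM2A promoters, -35.2 at Pdhx for H3K36me2 promoters and -29.6 at Ldhd for H3K36me2 gene bodies.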

How the data were processed

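ChIP-seq was performed for KDM2A and H3K36me2 on hypoxic B cell cultures. Per the study's methods and its submitters' processing notes, an nf-core pipeline with BWA, bedtools and MACS2 on GRCm38 gave the authors 1 broad peak list per library, without pooling, and the caller's version was not given in the sources used here. The deposited fold of a peak is a ratio over the control and carries no further scaling from library to library. Beside it the deposited lists have −log10 of a p-value and of a q-value, with a smallest −log10 q of 1.00, and a score that was not used here.

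Genes and TSS came from GENCODE M21. Peaks were intersected with promoter windows (2 kb to each side of every TSS) and gene bodies of all protein-coding genes. Coverage was tested where its mean was at least 5%, and the log2 fold where all 6 libraries had a promoter peak. Each was fitted in limma 3.58.1 (R 4.3.3, KO against WT, moderated with a mean-variance trend), with Benjamini-Hochberg adjustment over all genes tested and a threshold of 0.05. Python 3.11.15 (scipy 1.17.1, pandas 2.3.3, numpy 2.4.6) gave the other values. On simulated libraries with 100 genes changed by 20 and 100 by 40 points, limma recovered 8 and 37 for KDM2A promoters (8371 genes), 0 and 1 for H3K36me2 promoters (7107 genes) and 17 and 43 for H3K36me2 gene bodies (5342 genes), so a missed threshold is weak evidence. For log2 folds (5786 genes), 53 of 100 changes of 0.5 and 93 of 100 of 1 were found.

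All 32 members are accounted for, with values per library where genotypes did not overlap in a tested measure, where a gene had the highest or lowest mean of its role, or where it lies on chromosome X. Members and lists were chosen with earlier results of these data known. Alternatives were other scalings, peak thresholds, windows and TSS sets, a replicate block, female libraries only and leaving out each library.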

Additional observations from a re-analysis of the deposited data

Results flagged for a closer look

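In 11 of 54 tested coverage values of the members, the male libraries differed between KO and WT in the direction opposite to every pairing of the female libraries. By comparison these were 4 of 25 KDM2A promoter values (16%), 4 of 19 H3K36me2 promoter values (21.1%) and 3 of 10 gene body values (30%), where 11.4%, 23.6% and 29.4% of all genes tested did the same. With 1 male library per genotype, this difference was not tested. For KDM2A promoter coverage, male KO minus male WT was -16.6 points at Pfkl, -11.7 at Pdk1, -17.6 at Gpi1 and -26.7 at Ldha, where the female means differed by 5.38, 1.88, 25.1 and 10.9 points. For H3K36me2 promoter coverage it was 0.863 points at Slc16a3, 12.2 at Pfkm, 7.35 at Pdk1 and 16.5 at Slc16a1, against female differences of -11.2, -8.91, -6.48 and -11.8 points. For H3K36me2 gene body coverage it was 3.91 points at Pdk2, 0.68 at Pfkm and 2.74 at Pfkfb3, against -13.3, -8.13 and -13.2 points. The male KO library has the longest H3K36me2 list and the male WT library the shortest of the WT lists (85387 peaks). The male KDM2A lists are the longest in WT and of middle length in KO. The part of list length in these values was not tested.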

How the results depend on the processing

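Limma called no gene and no member under any alternative for KDM2A promoter fold, KDM2A promoter coverage and H3K36me2 promoter coverage. For H3K36me2 gene body coverage it called 2357 genes and 2 members with female libraries only, and 0 to 1455 genes and 0 to 2 members when each library was left out in turn. Deviations of same-numbered libraries from their genotype means correlated at -0.05 to 0.08 across genes. Such correlations cannot show whether these libraries, which share a sex, were also prepared together. The replicate block called 0 genes in each comparison, as the fit without it did. The number of members with all KO libraries lower in KDM2A promoter coverage was 2 of 24 after scaling to the library mean (5.43% of all genes) and 3 of 28 with the narrow window (11.6%), and with all higher 3 and 0 (7.65% and 1.42%). For KDM2A fold it was 1 of 16 with the stricter q (5.38%) and 1 of 21 with ranks (5.25%), and 1 of 21 was higher with lists of equal length (5.06%). For H3K36me2 promoter coverage it was 2 of 15 after scaling (9.62%), 0 of 8 with equal lists (19.5%), 0 of 1 with the stricter q (9.29%), and 5 of 17 with peak centres (20.9%) and with the narrow window (17.9%). For gene bodies it was 0 of 10 after scaling (7.86%), 1 of 6 with equal lists (31.6%), 0 of 1 with the stricter q (13.9%) and 5 of 23 without the filter (22.8%). Fits with fewer libraries, which separate more easily, gave higher counts for H3K36me2. Without KO replicate 1 it was 11 of 19 promoters (55.5%) and 9 of 11 gene bodies (74.5%). With female libraries only it was 13 of 19 (68.7%) and 10 of 10 (84.5%). After scaling the difference turned to 3.27 points at Tpi1, 21.5 at Gapdh and 1.88 at Pkm for KDM2A, and for H3K36me2 to 3.69 at the promoter of Pdk2 and to 5.18 and 2.42 over the bodies of Hk3 and Slc2a3. With equal lists it was 0.46 at Pgam2. The causes were not tested. Among members whose genotypes did not overlap, Slc2a1, Aldoc, Eno2 and Hk2 kept their direction for KDM2A promoter coverage under all 15 alternatives. For H3K36me2 promoters every such member but Pdk2 kept its direction wherever a value was given. These were 14 alternatives for Slc2a1, Hk3 and Pfkfb4, 12 for Pfkfb3, 11 for Hk1, and 10 for Eno1 and Ldha. Depth is unknown and limits every absence of a peak.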
